A study of Mus musculus with 1073 samples.

Results

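The 10 genes that are used to describe epithelial and mesenchymal cell states were followed through the mouse yolk sac between E7.25 and E10.5. They were the transcription factors *Snai1*, *Snai2*, *Twist1*, *Zeb1* and *Zeb2*, the cadherins *Cdh1* and *Cdh2*, and the intermediate filament genes *Vim*, *Krt8* and *Krt18*. The genes were chosen by name. Of the 10 listed, 9 are among the 15967 genes of the filtered tables, and *Cdh1* is only in the unfiltered counts of 47643 genes. The study asked how yolk sac mesoderm gives rise to blood, endothelium and mesenchyme, and 926 filtered single cells from 13 sorted populations were available to describe these genes.

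All cells came from pooled yolk sacs and were captured on the Fluidigm C1 system, which isolates each cell in its own chamber. At E7.25 (73 and 74 cells in 2 lanes) and E7.75 (140 cells, 53 and 87), cells carrying GFP from the *Flk1* (*Kdr*) locus were sorted from *Flk1*-GFP heterozygous embryos after trypsin. These *Flk1*-GFP+ cells are extraembryonic mesoderm and its early derivatives. All later populations came from C57BL/6 embryos after collagenase/dispase. Haematopoietic progenitor/colony forming cells (HPC) were TER119-, CDH5+ and CD41+ at E8.25 (73 cells) and E8.5 (89 cells), but CDH5-, CD45+ and CD41low later, with 46 cells from E9.5 and 87 from E10.5. Primitive erythroid cells (EryP) were sorted as TER119+ at E8.5 (66 cells) and at E10.5, where only 3 cells remained. Megakaryocytes (Mk) were CD41+ and CDH5- at E8.5 (37 cells), and CD41high and CD45- at E10.5 (73 cells). Macrophages (Mac) were CD45+ and CD41- at E10.5 (25 cells), and endothelial cells (Endo) were CDH5+ and CD41- at E8.5 (79 cells) and E10.5 (61 cells).

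The labels name no embryo or pool behind a cell, so each population was treated as 1 sample and no test between populations was made. The cells of a population give its spread, and a difference between populations has no replicate check. A filtered cell held 483830 to 5943204 counts, and the median cell 1887347. Levels are CPM, the share of a cell's reads on a fixed scale adjusted per cell, and a cell has a gene when at least 1 read was counted. Intervals given with shares and sums of reads are exact 95% intervals (binomial for shares, Poisson for sums) and cover counting error only. For a population without a read, the largest share that a count of 0 allows is given as 3 cells of those measured. The sorted labels were checked against marker lists. On average 100% of the endothelial list was found in an E8.5 Endo cell and 98.8% in an E10.5 Endo cell, 98% of the macrophage list in a Mac cell, and 98.9% of the megakaryocyte list in an E10.5 Mk cell. An E8.5 Mk cell held 71.9% of the megakaryocyte list and 98% of the erythroid list. The mesoderm list was found at 83.6% in E7.25 cells and at 53.5% in E7.75 cells.

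An epithelial to mesenchymal transition (EMT) is the process by which cells of a sheet loosen their junctions and become motile. Mesoderm forms through it at gastrulation, when epiblast cells leave the primitive streak. The SNAI, ZEB and TWIST proteins are transcription factors that drive it. SNAI and ZEB proteins bind E-box sequences and repress *Cdh1*, which encodes the adhesion protein of epithelial junctions. *Cdh2* encodes the cadherin that often takes its place, vimentin (*Vim*) is the typical filament protein of mesenchymal and endothelial cells, and keratins 8 and 18 (*Krt8*, *Krt18*) pair as the filament of simple epithelia. *Zeb2* has separate roles in blood cells.

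The promoters of *Snai1* and *Krt18* are shown because both genes had high levels in the same populations, and because SNAI and ZEB proteins bind the E-box CACCTG, whose reverse complement is CAGGTG. RefSeq promoter windows on GRCm38 were matched by symbol, and those of *Snai1*, *Twist1*, *Zeb2*, *Vim* and *Krt18* are described. The box was searched on both strands in the 250 bases before each start. Of all 32851 windows of that length, 5657 (17.2%) held it. The windows of *Snai1* and *Krt18* each held 1 box, and those of *Twist1*, *Zeb2* and *Vim* held none. The *Vim* window (13574061 to 13574310) lay inside the gene as positioned below, so the bases before that gene start were not searched. Some of the *Zeb2* windows also lay inside the gene. A match is a description of the sequence and not a bound site. Both stretches run up to the annotated start of the gene. Capitals mark the box, and both are written 5′ to 3′ on the gene's strand.
*Snai1*, chr2:167537945-167538194, plus strand: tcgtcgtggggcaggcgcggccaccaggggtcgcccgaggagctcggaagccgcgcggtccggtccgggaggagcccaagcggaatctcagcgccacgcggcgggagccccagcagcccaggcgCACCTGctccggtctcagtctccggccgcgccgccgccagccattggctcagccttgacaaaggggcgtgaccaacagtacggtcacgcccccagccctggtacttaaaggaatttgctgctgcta
*Krt18*, chr15:102027966-102028179, plus strand: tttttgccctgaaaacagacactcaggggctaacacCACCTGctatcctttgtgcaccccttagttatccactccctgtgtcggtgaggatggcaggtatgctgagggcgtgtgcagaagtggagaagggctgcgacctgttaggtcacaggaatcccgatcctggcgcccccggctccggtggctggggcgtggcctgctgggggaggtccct

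*Krt8* (chromosome 15, 101996698 to 102004482, minus strand) and *Krt18* (102028180 to 102032027, plus strand) are neighbours that point away from each other. On chromosome 2, *Snai1* lies at 167538195 to 167542814 and *Vim* at 13573927 to 13582826 on the plus strand, and *Zeb2* at 44983632 to 45117395 on the minus strand. *Snai2* is on chromosome 16 (14705852 to 14709385, plus strand), *Twist1* on chromosome 12 (33957671 to 33959829, plus strand) and *Cdh1* on chromosome 8 (106603351 to 106670246, plus strand). *Zeb1* (5591860 to 5775467, plus strand) and *Cdh2* (16588877 to 16809246, minus strand) are on chromosome 18. All positions are on GRCm38, and every level covers the exons of the whole gene.

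The 10 genes fell into 3 kinds of pattern. *Snai1*, *Snai2*, *Cdh2*, *Krt8* and *Krt18* had their highest means in *Flk1*-GFP+ cells. Their means in blood cells were at most 11.6 CPM, the level of *Krt18* in E10.5 HPC. *Zeb1* and *Vim* were highest in endothelium, and *Zeb2* was found throughout, with its highest means in macrophages and megakaryocytes. *Twist1* stayed under 10 CPM on average in all 13 populations, and *Cdh1* was close to absent.

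**Figure D1:**
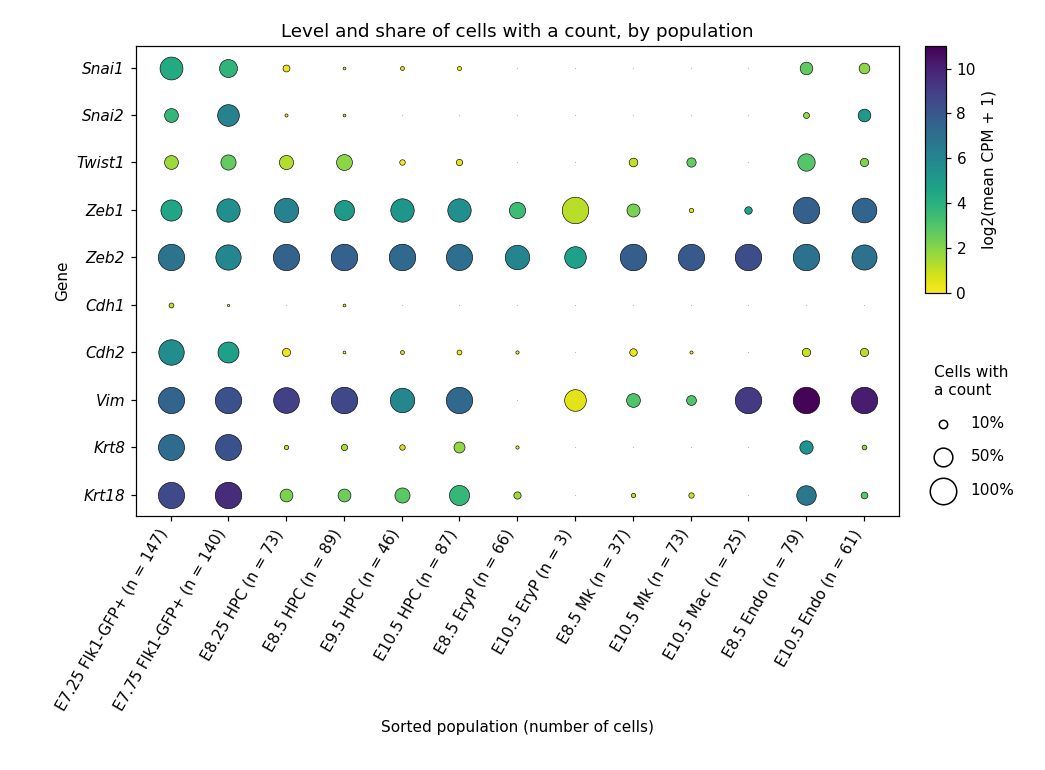
Mean level and detection of the 10 genes in the 13 sorted populations (columns, with the number of cells). Colour is log2(mean CPM + 1) and the area of a circle is the percentage of cells with at least 1 read; *Cdh1* levels are unfiltered counts scaled by the same factor per cell. *Krt8*, *Krt18*, *Cdh2*, *Snai1* and *Snai2* are found mainly in the first 2 columns, *Zeb2* in all columns, and *Zeb1* and *Vim* are strongest in the last 2.

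Among the factors, *Snai1*, the SNAI factor required for mesoderm cells to leave the primitive streak, was most widespread at E7.25. There its lowest, median and highest cell held 0, 6.88 and 119.03 CPM, the mean was 19.1 CPM, and 110 cells had a read (74.8%, interval 67.0 to 81.6). At E7.75 the lowest, median and highest were 0, 0 and 191 CPM, the mean was 13.6 CPM, and 64 of 140 cells had a read (45.7%, 37.3 to 54.3). The share of cells was lower at E7.75 while the highest cell was higher, and the middle ranges of the cells overlapped. After thinning every cell to 840000 counts the shares were 68.0% and 40.2%. *Snai1* was also found in 18 of 79 E8.5 Endo cells (22.8%, mean 5.39 CPM, highest 147.3 CPM) and in 10 of 61 E10.5 Endo cells (16.4%, mean 2.66 CPM). Among HPC, 5 E8.25 cells, 1 E8.5 cell, 1 E9.5 cell and 2 E10.5 cells had a read. No EryP, Mk or Mac cell had a read, which allows a share of up to 4.55% in E8.5 EryP, 8.11% in E8.5 Mk, 4.11% in E10.5 Mk and 12.0% in Mac.

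*Snai2* (Slug), the factor of the same family known from neural crest and mesenchymal cells, was ordered the other way round between the stages. At E7.25 its lowest, median and highest cell held 0, 0 and 253 CPM, with a mean of 12.2 CPM and a read in 40 cells (27.2%, 20.2 to 35.2). At E7.75 these were 0, 8.52 and 633 CPM, with a mean of 68.1 CPM and a read in 94 of 140 cells (67.1%, 58.7 to 74.8). Thinned to 840000 counts, the shares were 24.5% and 61.5%. The upper quartile was 0.699 CPM at E7.25 and 114.4 CPM at E7.75, so most of the E7.25 cells lay under the upper part of the E7.75 range. The next level in the order was E10.5 Endo, with a mean of 32.9 CPM, a median of 0 and 14 of 61 cells with a read (23.0%, 13.2 to 35.5). *Snai2* was found in 4 of 79 E8.5 Endo cells and in 1 HPC each at E8.25 and E8.5. No read was counted in E9.5 or E10.5 HPC, EryP, Mk or Mac.

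The E10.5 Endo level of *Snai2* came from few cells. The 4 highest cells held 872, 601, 274 and 213 CPM, the highest alone carried 43.5% of the summed CPM, and the highest 2 carried 73.5%. Without the highest cell the mean was 18.9 CPM. The highest 3 cells also held *Cdh5*, the endothelial cadherin, at 111.7, 714 and 329 CPM and *Kdr* at 722, 1079 and 409 CPM, all below the population means of 953 and 1527 CPM. Their *Pecam1*, another endothelial adhesion gene, was at 1.92, 82.2 and 30.4 CPM. All 14 *Snai2*-positive cells had a *Cdh5* read and none had a read of *Pdgfra*, a mesenchymal receptor. Among *Flk1*-GFP+ cells, 29 of 40 *Snai2*-positive cells from E7.25 and 82 of 94 from E7.75 had a *Pdgfra* read. These pairs were chosen after the values were seen. CDH5 was part of the Endo gate, and all 61 E10.5 Endo cells had a *Cdh5* read. *Pdgfra* was found in only 1 of these 61 cells, but in 78.2% of all E7.25 cells and 79.3% of all E7.75 cells.

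*Snai1* and *Snai2* were found both together and apart. At E7.25, 31 cells had both, 79 had only *Snai1*, 9 had only *Snai2* and 28 had neither. At E7.75, 45 had both, 19 only *Snai1*, 49 only *Snai2* and 27 neither. Across cells the Spearman rho of the pair was 0.03 and 0.04 at these stages, values that share library, depth and zeros and are given as a description. In E8.5 Endo no cell had both, with 18 cells holding *Snai1* and 4 holding *Snai2*, and in E10.5 Endo 3 cells had both.

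*Twist1*, a basic helix-loop-helix factor of head and limb mesenchyme, was low everywhere. Its highest mean was 6.63 CPM in E8.5 Endo, where 34 of 79 cells had a read (43.0%, 31.9 to 54.7). It was found in 32 of 89 E8.5 HPC (36.0%), 46 of 140 E7.75 cells (32.9%), 21 of 73 E8.25 HPC (28.8%) and 40 E7.25 cells (27.2%). The E9.5 and E10.5 HPC shares were 4.35% and 5.75%. Its mean of 5.16 CPM in E10.5 Mk rested on 1 cell that held 71.5% of the summed CPM. With a median of 0 in all 13 populations, its order was not read further.

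*Zeb1*, a zinc finger and homeodomain repressor, had its highest means in endothelium. In E8.5 Endo its lowest, median and highest cell held 0.421, 165 and 1001 CPM, the mean was 208.7 CPM, and all 79 cells had a read. In E10.5 Endo the lowest, median and highest were 0, 40.5 and 3378 CPM, the mean was 174 CPM, and 53 of 61 cells had a read (86.9%). The means lay close while the median was lower at E10.5, and the middle ranges overlapped. A single E10.5 Endo cell held 31.8% of the summed CPM, and the mean without it was 120.6 CPM. HPC held *Zeb1* throughout, and from the earliest to the latest stage the means were 71.7, 33.1, 36.4 and 45.9 CPM. In the same order it was found in 84.9%, 57.3%, 78.3% and 78.2% of HPC. The E8.25 HPC median of 33.3 CPM was near that of E10.5 Endo. It was found in 63.9% of E7.25 and 77.9% of E7.75 *Flk1*-GFP+ cells, with means of 22.4 and 46.2 CPM. *Zeb1* was low in EryP and Mk. It was found in 25 of 66 E8.5 EryP (mean 9.97 CPM), 9 of 37 E8.5 Mk (24.3%, mean 3.82 CPM) and 2 of 73 E10.5 Mk (2.74%, mean 0.310 CPM). In Mac, 2 of 25 cells gave the whole mean of 24.7 CPM, and the other cells had no read.

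*Zeb2*, its paralogue, had its highest means in Mac and Mk. In Mac its lowest, median and highest cell held 0.142, 199 and 1485 CPM with a mean of 347 CPM, and all 25 cells had a read. The means were 251 CPM in E10.5 Mk (72 of 73 cells) and 213 CPM in E8.5 Mk (37 of 37 cells). In HPC, from the earliest to the latest stage, they were 184, 197, 155.5 and 134.5 CPM. Endo (115.5 CPM at E8.5, 120.6 at E10.5) and E7.25 cells (110 CPM) lay below, and E8.5 EryP (63.0 CPM) and E7.75 cells (60.5 CPM) lower still. All neighbours in this order overlapped in the middle range of their cells. An antisense gene, *Zeb2os*, overlaps *Zeb2*, and reads from both strands cannot be told apart with these libraries. *Zeb2os* itself had a mean of 18.9 CPM in Mac and at most 2.4 CPM elsewhere.

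The paralogues were ordered differently in some populations, while EryP were near the low end for both. In E10.5 Mk, *Zeb2* was found in 98.6% of cells and *Zeb1* in 2.74%. In Mac the shares were 100% and 8.00%. In Endo both were found together in 79 of 79 cells at E8.5 and in 49 of 61 at E10.5, and per kilobase of exon the mean level of *Zeb1* was 20.3 CPM against 5.79 CPM for *Zeb2* at E8.5 and 17.0 against 6.05 at E10.5. Over the 12 populations with at least 10 cells, the Pearson correlation of log2(mean CPM + 1) between the 2 genes was -0.32.

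**Figure D2:**
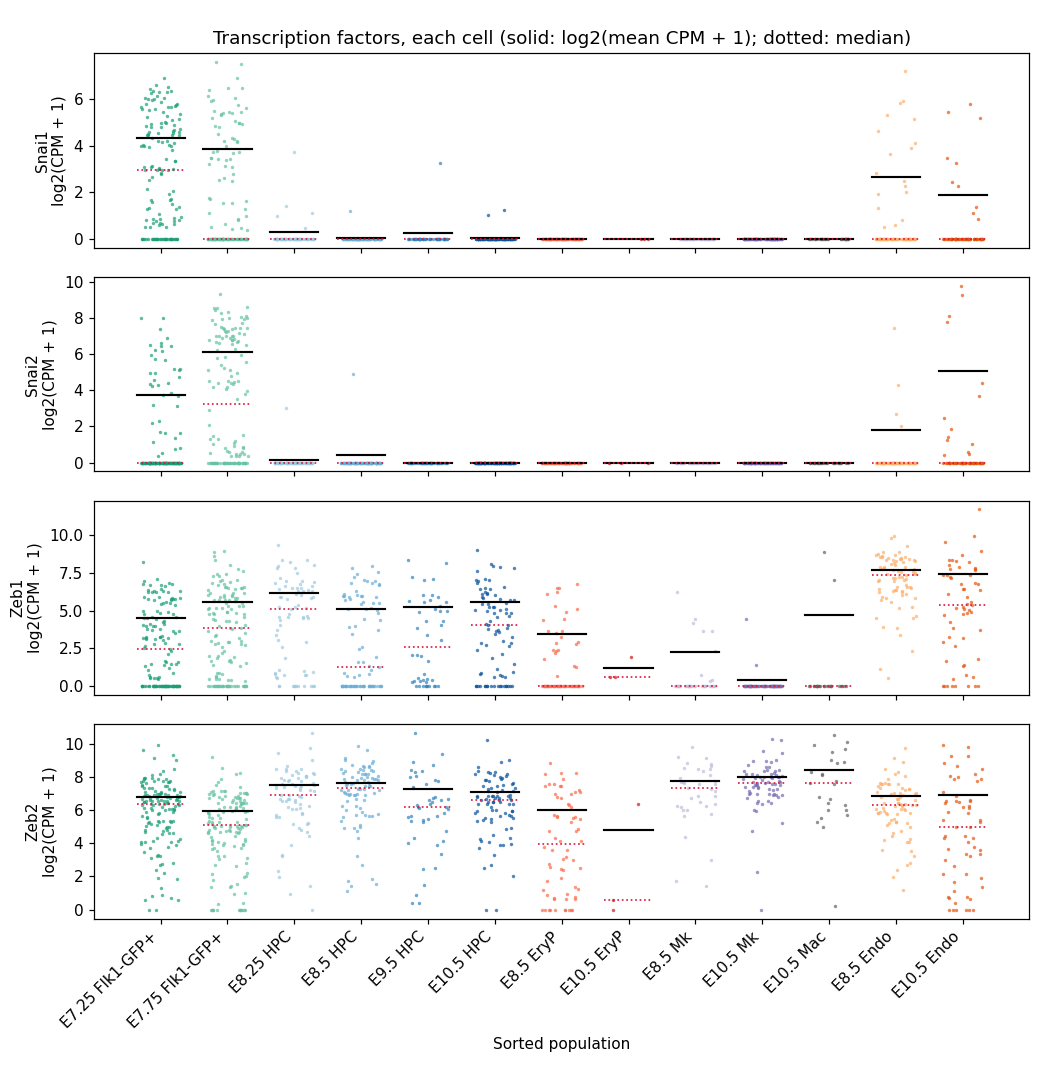
Levels of *Snai1*, *Snai2*, *Zeb1* and *Zeb2* in each cell (points, log2(CPM + 1)) by sorted population. The solid line is log2(mean CPM + 1) and the dotted line the median; *Snai1* and *Snai2* points above 0 lie almost entirely in *Flk1*-GFP+ and Endo cells, *Zeb1* is at 0 in nearly all E10.5 Mk and Mac cells, and *Zeb2* is above 0 in most cells of every population with more than 3 cells.

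Of the cadherins, *Cdh1* (E-cadherin) was close to the limit of detection. In the filtered cells 254 reads (interval 223.7 to 287.2) were counted in 5 E7.25 cells (3.40%, 1.11 to 7.76), 4 of which had at least 10 reads. The only other reads were 1 in an E7.75 cell and 7 in an E8.5 HPC. Nothing was counted in the other 10 populations, which allows a share of up to 3.80% in E8.5 Endo, 3.45% in E10.5 HPC and 4.55% in E8.5 EryP. The 5 E7.25 cells held 100, 94, 33, 24 and 3 *Cdh1* reads and came from both lanes. All 5 also had *Krt8*, *Vim* and *Epcam* reads, and 4 of them had *Cdh2* reads. The cell with 100 *Cdh1* reads had 299 reads of *Vim*, 663 of *Krt8* and none of *Cdh2*, while the cell with 33 had 241 of *Cdh2* and 159 of *Snai1*. No read of *Ttr* or *Apoa1*, genes of visceral endoderm, was counted in these 5 cells. The E8.5 HPC with 7 *Cdh1* reads had 44 of *Ttr*, and the E7.75 cell with 1 had 36 of *Apoa1*. *Epcam*, another epithelial adhesion gene, was found in 55.8% of all E7.25 cells (mean 16.8 CPM) and 20.7% of E7.75 cells (4.47 CPM).

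*Cdh2* (N-cadherin) was nearly restricted to the *Flk1*-GFP+ cells. At E7.25 its lowest, median and highest cell held 0, 29.9 and 248 CPM, the mean was 48.2 CPM, and 92.5% of cells had a read (interval 87.0 to 96.2). At E7.75 these were 0, 1.39 and 737 CPM, the mean was 25.6 CPM, and 88 of 140 cells had a read (62.9%, 54.3 to 70.9). The typical E7.75 cell thus held far less than the mean. In the other 11 populations the mean was at most 1.27 CPM and the share at most 10.1%.

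*Vim* was strongest in endothelium. In E8.5 Endo its lowest, median and highest cell held 125.5, 1886 and 3958 CPM with a mean of 1875 CPM. In E10.5 Endo these were 18.4, 1014 and 4118 CPM with a mean of 1108 CPM. The middle ranges of these populations did not overlap with each other, and that of E10.5 Endo did not overlap with the next in the order. Mac followed with a mean of 559 CPM but a median of 191, since 1 cell at 5454 CPM held 39.0% of the summed CPM and the mean without it was 355 CPM. In HPC the means were 480, 391, 58.5 and 158.4 CPM from the earliest to the latest stage, which is no steady order. *Flk1*-GFP+ cells held 180 CPM at E7.25 and 305 CPM at E7.75.

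*Vim* was low in EryP and Mk. No read was counted in 66 E8.5 EryP (share up to 4.55% by the limit above), although these cells held a median of 2099062 counts. In E8.5 Mk it was found in 10 of 37 cells (27.0%, mean 7.22 CPM) and in E10.5 Mk in 10 of 73 (13.7%, mean 7.11 CPM). The 3 E10.5 EryP held 2 *Vim* reads in all.

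The keratins were genes of the mesoderm here. *Krt8* at E7.25 had a lowest, median and highest cell of 0, 113.5 and 695 CPM and a mean of 144.3 CPM. At E7.75 these were 0, 278 and 1456 CPM with a mean of 304 CPM. Reads were found in 96.6% and 96.4% of the cells. *Krt18* had a lowest, median and highest of 0, 229 and 1938 CPM at E7.25 (mean 366 CPM) and of 0.350, 658 and 3641 CPM at E7.75 (mean 808 CPM). It was found in 98% of E7.25 cells and in all 140 E7.75 cells. Per kilobase of exon at E7.75, *Krt18* had a mean level of 562 CPM, *Krt8* 155.4 CPM and *Vim* 64.3 CPM. In E8.5 Endo the order turned round, with 395 CPM per kilobase for *Vim*, 69.6 for *Krt18* and 19.8 for *Krt8*.

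Nearly every *Flk1*-GFP+ cell held keratin and vimentin reads together. *Vim* and *Krt8* were found in the same cell in 94.6% of E7.25 cells and in 96.4% of E7.75 cells, and the shares with both *Krt8* and *Krt18* were the same 94.6% and 96.4%. Across cells the Spearman rho of *Krt8* and *Krt18* was 0.82 in E7.25 and 0.83 in E7.75 cells, and that of *Vim* and *Krt8* was 0.37 and 0.62. At E7.75 the lower quartile was 28.7 CPM for *Krt8* and 99.5 CPM for *Krt18*. Some desmosomal genes, which anchor keratin filaments at junctions, were present in the same populations. The means of *Dsp* were 192 and 104.96 CPM, and those of *Dsg2* 86.6 and 82.9 CPM. *Dsc2* was at 19.8 and 26.5 CPM, and *Pkp2* at 20.1 and 67.8 CPM against 26.2 CPM in E8.5 Endo. *Jup* went the other way, with 5.73 and 14.2 CPM here but 64.9 CPM in E8.5 Endo and 229 CPM in E10.5 Endo.

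In blood cells keratin levels were low, and more HPC had a read of *Krt18* than of *Krt8*. *Krt18* was found in 17 of 73 E8.25 HPC (23.3%), 21 of 89 E8.5 HPC (23.6%), 15 of 46 E9.5 HPC (32.6%) and 50 of 87 E10.5 HPC (57.5%). After thinning these shares were 16.7%, 23.6%, 26.7% and 43.7%. The E10.5 HPC mean was 11.6 CPM with a median of 0.656 CPM and a highest cell of 130 CPM. *Krt8* was found in 15 of the E10.5 HPC (17.2%, mean 2.52 CPM). Neither keratin had a read in 25 Mac cells, and *Krt8* had none in 37 E8.5 Mk and 73 E10.5 Mk. The pseudogene *Krt8-ps* had means of 38.1 CPM at E7.25, 69.9 at E7.75 and 12.2 in E8.5 Endo, and reads of near-identical sequence could be divided between it and *Krt8*.

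**Figure D3:**
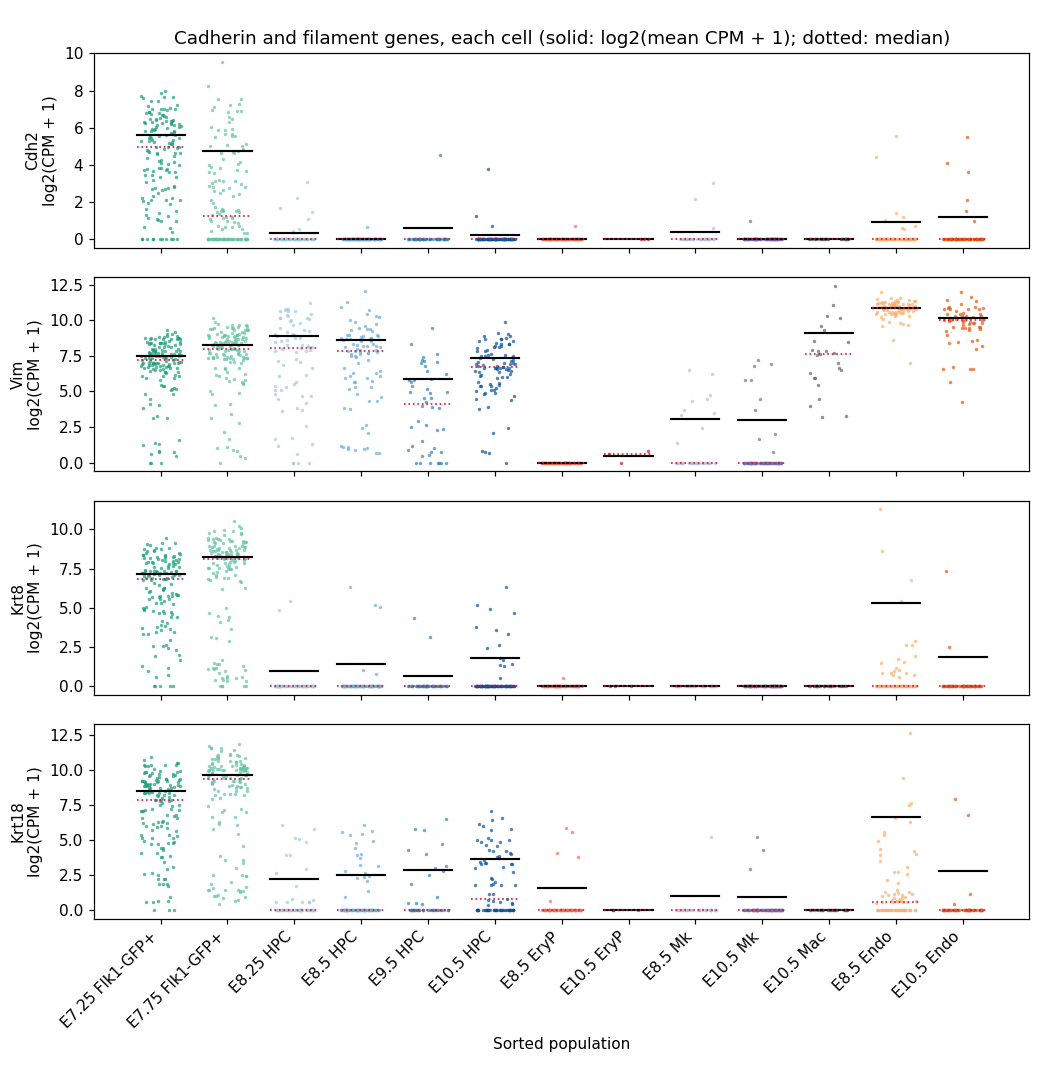
Levels of *Cdh2*, *Vim*, *Krt8* and *Krt18* in each cell (points, log2(CPM + 1)) by sorted population, with log2(mean CPM + 1) as a solid line and the median as a dotted line. Outside the *Flk1*-GFP+ cells *Krt8*, *Krt18* and *Cdh2* have medians under 1 CPM, and *Vim* is highest in Endo and at 0 in E8.5 EryP.

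In E8.5 Endo the keratin means described 1 cell more than the population. *Krt8* had a mean of 38.8 CPM and a median of 0, with reads in 20 of 79 cells, and *Krt18* had a mean of 100 CPM and a median of 0.488, with reads in 43. A single cell held 2485 CPM of *Krt8* and 6430 CPM of *Krt18*, which made up 81.0% and 81.4% of the summed CPM. Without it the means were 7.47 and 18.9 CPM. This cell also held the highest *Krt7* (1651 CPM), *Krt19* (1083 CPM) and *Dsp* (569 CPM) of the population. Its *Vim* (125.5 CPM), *Cdh5* (60.1 CPM), *Pecam1* (5.55 CPM) and *Kdr* (82.3 CPM) were the lowest of the 79 cells, and its *Zeb1* was 1.23 CPM against a mean of 208.7. Its *Snai1* was 39.2 CPM against a mean of 5.39. *Epcam* had no read in any of the 79 cells, and *Pdgfra* and *Cdh2* were found in 6.33% and 10.1% of them. The keratin cell had no read of *Epcam*, *Ttr*, *Apoa1*, *Pdgfra* or *Cdh2*. Whether it was sorted or captured in error was not tested.

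The second highest cell shared part of this. Its *Cdh5* (79.5 CPM) was the second lowest and its *Zeb2* (1.31 CPM) the lowest of the population, and its *Krt19* was 49.3 CPM. *Dsp* had no read and *Krt7* 1 read. It held 687 CPM of *Krt18* and 399 CPM of *Krt8* with 1471 CPM of *Vim*, 216 CPM of *Zeb1* and the highest *Snai2* of the population (172 CPM). The third cell held 198 CPM of *Krt18*, 107.9 CPM of *Krt8* and 893 CPM of *Vim*. Over all E8.5 Endo cells, 12 had both keratins, 8 only *Krt8* and 31 only *Krt18*, with a Spearman rho of 0.16. In E10.5 Endo 2 of 61 cells had *Krt8* and 4 had *Krt18*, 1 of them both.

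**Figure D4:**
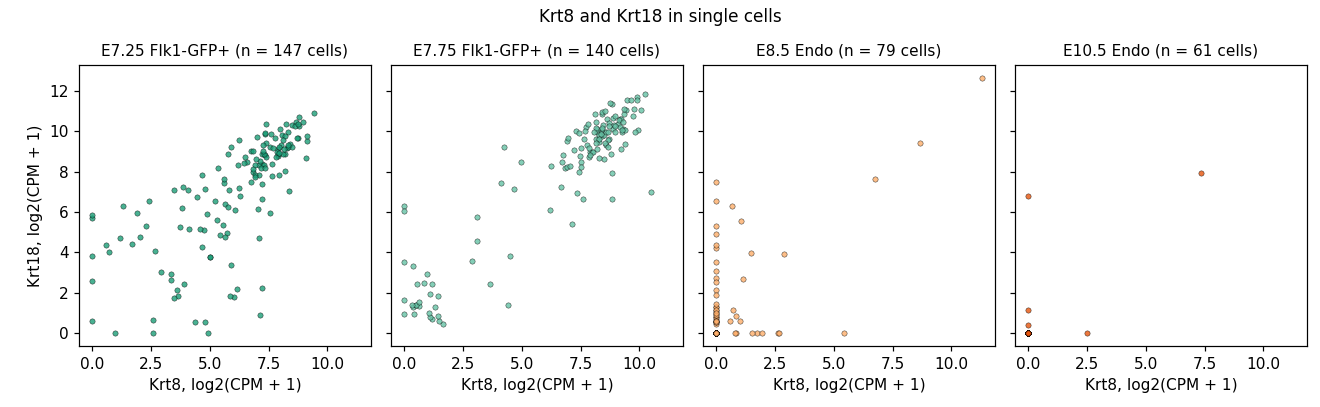
*Krt18* against *Krt8* in single cells (points), both as log2(CPM + 1), in E7.25 and E7.75 *Flk1*-GFP+ cells and in E8.5 and E10.5 Endo. In *Flk1*-GFP+ cells the genes lie along a diagonal (Spearman rho 0.82 and 0.83), whereas most Endo cells lie on or near 0 for *Krt8* and 1 E8.5 Endo cell stands far above the rest.

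Stage was compared first within *Flk1*-GFP+ cells, as log2 of the ratio of mean CPM + 1, for genes whose mean reached 10 CPM in 1 or both of the populations compared. A gene was called at 2-fold. Counts of genes from a list below are of those that passed this filter. Of the listed genes 8 passed the filter, 4 were higher at E7.75 and none was lower, where 4.92% of 8888 genes were higher and 5.46% lower. *Snai2* was higher by 2.38, *Krt18* by 1.14, *Krt8* by 1.07 and *Zeb1* by 1.01 on the log2 scale. The differences of *Vim* (0.76), *Snai1* (-0.47), *Zeb2* (-0.85) and *Cdh2* (-0.89) did not reach 2-fold. With the highest and lowest 10% of cells trimmed from each mean, *Snai1* and *Cdh2* were called lower at E7.75 and *Zeb1* was not called. *Cdh2* was also called lower without the highest cell of each population. The median over the 8 genes was 0.88, beside 0.04 over all genes compared.

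The cells of each of these stages were sequenced in 2 lanes, and the lanes of a stage differed. Mean *Snai2* was 3.04 and 21.3 CPM in the E7.25 lanes and 94.1 and 52.2 CPM in the E7.75 lanes. Mean *Krt18* was 237 and 494 CPM at E7.25 and 1036 and 670 CPM at E7.75. Both E7.75 lanes lay above both E7.25 lanes for *Snai2*, *Zeb1*, *Vim*, *Krt8* and *Krt18*, and below both for *Zeb2* and *Cdh2*. Over the 4 pairs of lanes the log2 ratio ran from 1.25 to 4.56 for *Snai2*, from 0.44 to 2.12 for *Krt18*, from 0.64 to 1.65 for *Krt8* and from 0.62 to 1.499 for *Zeb1*. Of these 4 genes only *Snai2* passed 2-fold in all 4 pairs. *Snai1*, *Zeb2* and *Cdh2* each passed 2-fold, lower at E7.75, in 1 of the 4 pairs. The stages were also sequenced on different flow cells, so stage and run cannot be told apart. Each of the later populations was in 1 lane, and where 2 of them are compared below, their lanes differ. In those comparisons lane and population cannot be told apart.

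Other genes of the process were taken from fixed lists, and those named because they passed 2-fold were chosen after their values were seen. Among 7 factors of mesoderm and EMT, 3 were lower at E7.75 and none was higher. *Eomes*, a T-box factor of the primitive streak, went from 105.6 to 2.04 CPM, *T* (Brachyury) from 66.6 to 9.40 CPM and *Mesp1* from 15.0 to 0.849 CPM. *Tcf4*, an E protein, was at 139.7 and 157.8 CPM. At E7.25, 90 of the 110 *Snai1*-positive cells had *Eomes* and 82 had *T*, while at E7.75 these were 7 and 22 of 64. Over all E7.25 cells, 78.2% had *Eomes* and 77.6% had *T*, and over all E7.75 cells 10% and 27.9%. The counts in *Snai1*-positive cells were thus near these shares. Of 14 mesenchymal genes 4 were higher at E7.75 (*Col1a1*, *Col1a2*, *Lgals1* and *Mmp2*), with *Col1a2* going from 13.4 to 40.6 CPM. Of 10 epithelial genes *Pkp2* and *Jup* were higher and *Epcam* was lower. In the remaining lists, *Jup* was higher and *Cdh4* lower among 6 catenins and cadherins, *Lmna* was higher among 5 other filament genes and linkers, and *Ctbp1*, a corepressor recruited by ZEB proteins, was higher (15.5 to 32.6 CPM) among 13 corepressors and signals.

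Within the *Flk1*-GFP+ cells, those with at least 4 of the haemato-endothelial genes *Kit*, *Gata2*, *Fli1*, *Hhex*, *Lmo2* and *Tal1* were compared with the others. The class held 86 cells of E7.25 (58.5%) and 91 cells of E7.75 (65.0%), and the others were 61 and 49. It is a range rather than a cell type, since 23 and 25 cells had 3 of the genes and 25 and 20 had 4. Median total counts were 1804860 in the class and 1848579 in the others at E7.25, and 1972765 and 2143729 at E7.75. Median *Pdgfra* was 10.7 CPM in the class and 83.7 in the others at E7.25, and 5.45 and 85.0 in the E7.75 cells.

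*Snai1* and the keratins were lower in this class at both stages. *Snai1* was found in 66.3% of class cells and 86.9% of the others at E7.25 (means 13.5 and 27.1 CPM), and in 31.9% and 71.4% at E7.75 (means 8.85 and 22.3 CPM, log2 ratio -1.24). *Krt18* had means of 297 and 463 CPM at E7.25 and 563 and 1264 CPM at E7.75 (log2 ratio -1.17). *Krt8* had means of 114.7 and 186 CPM, then 214 and 472 CPM (log2 ratio -1.14). *Snai2* means were 7.3 and 19 CPM at E7.25 (log2 ratio -1.30), and 53 and 97 CPM at E7.75 (-0.87). The class lay below the others in each of the 4 lanes for all 4 genes. *Zeb1* and *Zeb2* had ratios between -0.08 and 0.65, and *Vim* of 0.24 at E7.25 and -0.51 at E7.75. *Cdh2* had ratios of -0.66 and -0.43, but in 1 E7.75 lane its mean was higher in the class (26.9 and 14.1 CPM). These ratios depended on the class. With at least 10 counts required of each gene, the E7.75 ratios were -0.87 for *Zeb1*, -1.14 for *Vim* and -2.11 for *Cdh2*, and *Cdh2* in that lane was at 2.98 CPM in the class and 36.5 CPM in the others.

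Among HPC, few of the listed genes passed the filter. Between E8.25 and E8.5, 3 did (*Zeb1*, *Zeb2* and *Vim*), and only *Zeb1* was called, lower at E8.5 by a log2 ratio of -1.09, where 2.86% of 8879 genes were higher and 3.82% lower. Between E8.5 and E10.5, 4 passed. *Vim* was lower at E10.5 (391 to 158.4 CPM, log2 ratio -1.30) and *Krt18* higher (4.55 to 11.6 CPM, 1.18), where 9.02% of 9184 genes were higher and 12% lower. *Zeb1* (0.46) and *Zeb2* (-0.55) were not called. The gate differed, CDH5+ at E8.5 and CDH5- at E10.5, and cannot be told apart from stage. *Cdh5* itself went from 124.3 to 13.0 CPM, and of 7 mesenchymal genes 4 were lower, including *Fn1* (255 to 25.5 CPM) and *Sparc* (297 to 26.3 CPM), both matrix genes, while *Lgals1* was higher. Among epithelial genes *Tjp1* (32.3 to 8.80 CPM) was lower, and *Rbm47* (0.906 to 29.7 CPM) and *Spint2* (2.64 to 12.0 CPM) were higher. Of 13 corepressors and signals 4 were lower, among them *Tgfbr1* (138.8 to 38.2 CPM).

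Between E8.5 and E10.5 Endo, 6 of the listed genes passed the filter. *Snai2* was higher at E10.5 (log2 ratio 3.26), and *Krt18* (-3.88) and *Krt8* (-3.43) were lower, where 21.2% of 9938 genes were higher and 16.4% lower. *Zeb1* (-0.26), *Zeb2* (0.06) and *Vim* (-0.76) were not called. All 3 calls rested on the few cells described above. With the highest and lowest 10% of cells of each population trimmed from the mean, none of the 3 was called. *Zeb1* was then called lower at E10.5, where its median was 40.5 CPM against 165 CPM in E8.5 Endo. *Krt7*, *Krt19* and *Dsp*, the other genes high in the single keratin cell, were also lower at E10.5. Among corepressors and signals, *Fgfr1* (68.8 to 474 CPM), *Tgfbr2* (142.8 to 416 CPM) and *Ctbp2* were higher and *Smad3* lower, of 13. Of 10 mesenchymal genes *Itgb1* and *Itga5* were higher and *Col1a2*, *Fbn1* and *Mmp2* were lower. Between E8.5 and E10.5 Mk only *Zeb2* passed the filter, with a log2 ratio of 0.23, and no listed gene was called where 16.3% of 8983 genes were higher and 12.7% lower.

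Lineages of the same stage were compared next. In E8.5 Endo against E8.5 HPC, 5 of the listed genes passed the filter and 4 were higher in Endo, where 17.9% of 9433 genes were higher and 10.4% lower. These were *Krt18* (4.19), *Krt8* (3.91), *Zeb1* (2.62) and *Vim* (2.26) on the log2 scale, and *Zeb2* had a ratio of -0.76. Trimmed means called *Zeb1* and *Vim* but not the keratins. The gates shared CDH5 and differed in CD41. Of 11 mesenchymal genes 9 were higher in Endo and none lower, including *Mmp2* (8.15 to 161 CPM) and *Lgals1* (79.4 to 545 CPM). Of 8 epithelial genes 6 were higher, among them the tight junction genes *Tjp1* (32.3 to 218 CPM) and *Ocln* (5.25 to 37.3 CPM). *Krt7*, *Krt19* and *Dsp* were also among the 6, with Endo means of 21.0, 15.2 and 12.4 CPM. The single keratin cell described above held 1651, 1083 and 569 CPM of these genes.

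In E10.5 Endo against E10.5 HPC, 5 passed and 3 were higher in Endo, where 30.4% of 10248 genes were higher and 20.4% lower. *Vim* had a log2 ratio of 2.80 and *Zeb1* of 1.90. *Snai2* had no read in 87 HPC, and its mean of 32.9 CPM in Endo was 1407 times a floor of 3 reads over the HPC. That mean came from few cells, as described above, and the Endo median was 0. *Snai2* was not called with trimmed means or with a filter of 50 CPM. *Zeb2* (-0.16) and *Krt18* (-0.88) were not called. Of 16 mesenchymal genes in the filtered data, 9 passed the filter and were higher in Endo, as were 5 of 8 catenins and cadherins, *Cdh5* being one of the gating proteins. Below the filter, *Postn* (5.52 CPM) and *Pdgfrb* (3.42 CPM) had reads in HPC and none in Endo. The tight junction gene *Tjp1* went from 8.80 CPM in HPC to 323 CPM in Endo. *Fgfr1* (3.02 and 474 CPM) and *Tgfbr2* (29.9 and 416 CPM) were higher in Endo and *Smad3* lower (49.3 and 5.28 CPM).

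In E10.5 Mac against E10.5 HPC, 4 passed. *Vim* (log2 ratio 1.81) and *Zeb2* (1.36) were higher in Mac, where 22.4% of 9300 genes were higher and 24.4% lower. *Krt18* had no read in 25 Mac cells, and its mean of 11.6 CPM in HPC was 179 times a floor of 3 reads over the Mac cells. The HPC median was 0.656 CPM, and *Krt18* was not called with trimmed means or with a filter of 50 CPM. *Zeb1* had a ratio of -0.87, which was -2.66 without the highest cell of each population. Among corepressors and signals 5 were higher, including *Ctbp1* (23.2 to 119.5 CPM) and *Tgfbr1* (38.2 to 212 CPM), and 2 were lower, of 13.

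**Figure D5:**
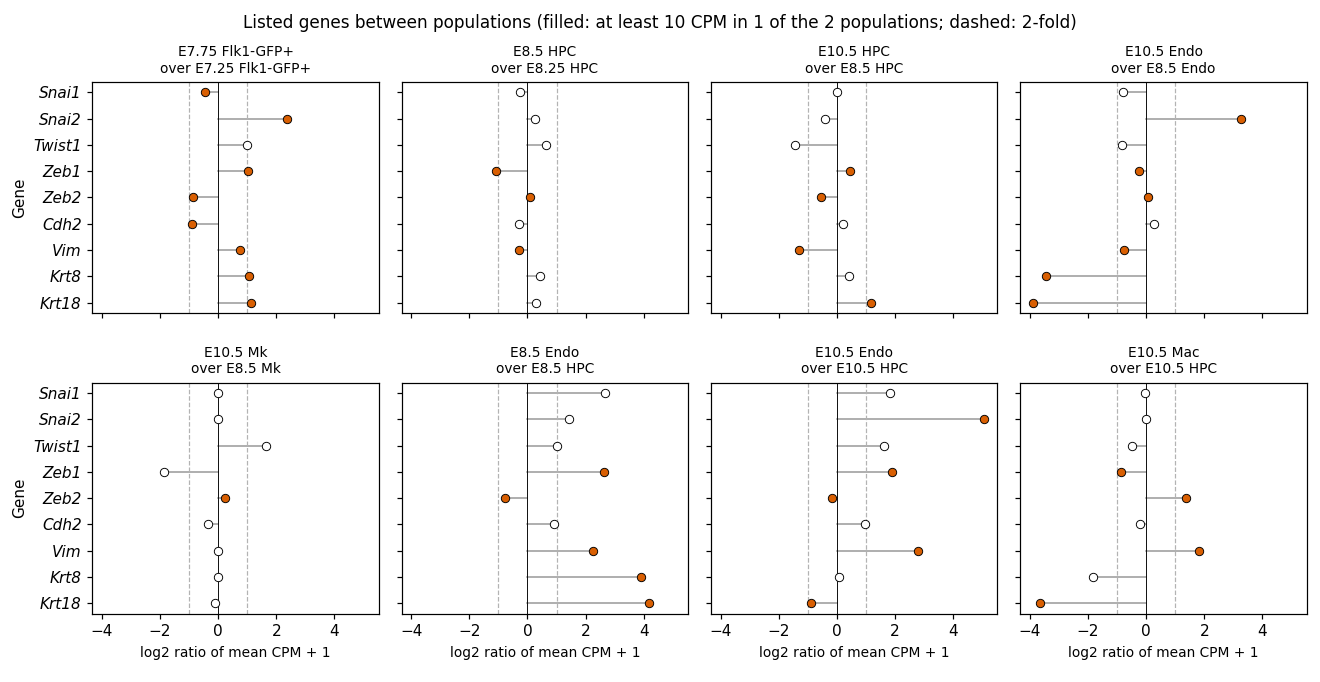
Log2 ratios of mean CPM + 1 for the listed genes in 8 comparisons of populations, 1 panel each. Filled points are genes whose mean reached 10 CPM in 1 or both populations, open points the others, and dashed lines mark 2-fold (*Cdh1* is not drawn). Points against a population without a read are no bounds; among filled points, *Zeb1* and *Vim* lie to the right in both comparisons of Endo with HPC, and the keratins lie to the right at E7.75 and to the left in E10.5 Endo against E8.5 Endo.

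Genes with the most similar pattern over the 12 populations with at least 10 cells were found from the Pearson correlation of log2(mean CPM + 1), among 12193 genes. Closest to *Krt8* were *Tdo2* (0.989), the pseudogene *Krt8-ps* (0.983) and *Shc2* (0.977), and closest to *Krt18* were *Tdo2* (0.962), *Krt8-ps* (0.956) and *Vnn1* (0.949). The keratins correlated with each other at 0.985. As described above, reads could be divided between *Krt8-ps* and *Krt8*, and a single cell gave most of both keratin means in E8.5 Endo. *Cdh2* was followed most closely by *Frzb* (0.989), *Nkd1* (0.986) and *Fbln2* (0.985). *Snai1* was closest to *Sulf1* (0.973), *Cyp26a1* (0.973) and *Igdcc3* (0.968), and among the listed genes to *Krt8* (0.955). *Snai2* was closest to *Cd248* (0.978), *Rbms3* (0.978) and *Fendrr* (0.972).

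*Vim* was closest to *Igfbp4* (0.979), *Cd302* (0.976) and *Marcks* (0.947), and *Zeb1* to *Crybg3* (0.946), *Map4k4* (0.939) and *Anxa2* (0.917). *Zeb1* and *Vim* correlated at 0.81. For *Zeb2* the closest were *Tnfrsf13b* (0.879), *Stk10* (0.879) and *Cyth4* (0.876), a weaker likeness than for the other genes. With ranks in place of levels, at most 1 of each 3 named genes stayed among the closest 3.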

How the data were processed

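Single cells were analysed from the deposited tables. Per the paper's methods, the authors aligned paired reads of unstranded Nextera XT libraries with Rsubread to Ensembl mouse release 84 (GRCm38), counted them with featureCounts and filtered cells with scater, which left 926 of 1073. The deposited count values are reads and not molecules. The deposited signal values are CPM that the authors scaled with scran size factors. Cells were used as deposited, without marking doublets, and no pair of cells had identical counts. Table headers name some stages differently, and stages were taken from the labels.

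Python 3.11.15, numpy 2.4.6, pandas 2.3.3 and scipy 1.17.1 were used, with gene positions from GENCODE M21. Ratios used a pseudocount of 1 CPM and a filter of 10 CPM. Thinning to 840000 counts left out 46 cells. Scripts were checked on simulated data. The listed genes, the gene lists and the comparisons were chosen with earlier results of these data known. Named genes are the listed ones, their 3 closest by correlation, and genes of the lists. The alternatives were another pseudocount, filter, depth, mean and lane, and leaving out the highest cell, which was added after the data were seen. *Cdh1* was read from the unfiltered counts. Droplet data of the same study were not analysed here. A gene of the lists and 1 promoter stretch are not reported here.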

Additional observations from a re-analysis of the deposited data

Results flagged for a closer look

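*Cdh1* reads were counted in cells that the filter had removed, outside every comparison above. In the 18 E8.5 EryP cells that were removed, 7 reads were counted in 4 cells, with at most 3 in a cell, whereas the 66 cells kept had none. The removed cells had a median total of 469622 counts. No embryo or lane tells these cells apart, and the source of the reads was not tested. In E10.5 Mk, 3 reads were counted in 1 of 10 removed cells.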

How the results depend on the processing

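No paired analysis was possible because the labels give no embryo or pool and no test was made. Of 60 counts of called genes under an alternative, 48 lay within 1.5 times the reported count. This measures how many genes were called and not which. With trimmed means, E10.5 Mac against HPC kept 3 calls but lost *Krt18* and gained *Zeb1*. Trimmed means of E7.75 against E7.25 lost *Zeb1* and gained *Snai1* and *Cdh2*, both lower at E7.75. For E7.75 against E7.25 the count of 4 became 1 when the second E7.25 lane was compared with the second E7.75 lane. For E8.5 against E8.25 HPC it went from 1 to 0 with a pseudocount of 10. For E10.5 against E8.5 HPC it went from 2 to 1 with a pseudocount of 10, with a filter of 50 CPM and with thinned counts, and to 0 with trimmed means. For E10.5 against E8.5 Endo it went from 3 to 1 with the filter of 50 CPM. With trimmed means it was also 1, and *Zeb1* was the gene called, lower at E10.5. Without a filter it went from 0 to 2 in Mk, from 4 to 7 in E8.5 Endo against HPC and from 3 to 5 in E10.5 Endo against HPC, and trimmed means gave 2 in E8.5 Endo against HPC. The cause of these changes was not tested, apart from the larger or smaller number of genes that a filter admits. Single log2 ratios stayed on their side of 2-fold in 240 cases, crossed it upwards in 11 and downwards in 21, and none of these changed sign past it. The 18 ratios of the haemato-endothelial class depended on its definition. When each of the genes needed 10 counts, 7 passed 2-fold that had not, and *Twist1* at E7.75 did so in the other direction (0.90 to -1.42). Populations of 1 sample, lanes that differ and 3 E10.5 EryP limit all values, and low shares depend on depth.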
